A study of Mus musculus with 54 samples.

Results

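The genes described here are 43 interferon-stimulated and antigen processing genes, followed in mouse 3T3-L1 cells over 288 h. They were found by gene symbol or synonym in the platform annotation of the array, a rule that uses no measured value, though the list itself was drawn up with earlier results of these data known. A probe was found for 41 of the 43, and all 41 lay above the filter on dim genes. No probe was found for Xaf1 and Tgtp1. Cmpk2 and Irgm1 are annotated under the older symbols Tyki and Irgm. The 41 are part of 16637 genes with a probe, of which 12792 were tested.

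3T3-L1 is a mouse fibroblast line that can be turned into adipocytes in culture, and the labels call the cells preadipocytes. The first arm received prieurianin, a limonoid plant compound, at 2 µM. The second received 0.5% DMSO, the solvent, and the third was an untreated control that the series text describes as differentiating normally. Each arm has 18 arrays, 1 per time, 54 in all. Of the times, 0 to 3 h holds 6 (0, 0.25, 0.5, 1, 2 and 3 h), 5 to 48 h holds 7 (5, 9, 12, 15, 24, 36 and 48 h), and the last 5 run from 96 to 288 h in steps of 48 h. The labels give no genotype beyond the line and do not say whether each time was a separate culture, or how the differentiation stimulus was timed against the treatment.

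Interferons are secreted cytokines that signal through JAK kinases to STAT and IRF factors. These bind interferon-stimulated response elements and gamma-activated sites in promoters and switch on genes that sense viral RNA, block viral replication and cut and load peptides for presentation on MHC class I. Fibroblasts and preadipocytes carry interferon receptors and many of these genes keep a basal level in culture without added interferon.

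The promoters of 34 of the 43 genes were in RefSeq's table for GRCm38.p6. A window of 300 bases, 250 before to 50 after the start, was searched for the core of the interferon-stimulated response element, which is GAAA, any 2 bases and GAAA again (TTTC, 2 bases and TTTC on the other strand), and for the gamma-activated site, written TTCNNNGAA, which reads the same on both strands. The first motif was found in 17 of the 34 genes (50%), against 3.99% of the 27025 genes in the table. The second was found in 9 of 34 (26.5%), against 9.55% of all genes, and 21 of 34 (61.8%) held at least 1 of the 2, against 12.9%. The 160 bases before the start are shown for 4 genes named below, with motif matches in capitals. Isg15 (chr4:156200819-156200978, minus strand) has 3 overlapping response element cores and Ifit3 (chr19:34583369-34583528, plus strand) has 2. Igtp (chr11:58199396-58199555, plus strand) has 1 of each motif, and Irf1 (chr11:53769854-53770013, plus strand) has a gamma-activated site motif alone. Another Irf1 start listed by RefSeq, not shown, had neither motif in its window. A match of letters describes the sequence and does not show that a factor binds there.
Isg15: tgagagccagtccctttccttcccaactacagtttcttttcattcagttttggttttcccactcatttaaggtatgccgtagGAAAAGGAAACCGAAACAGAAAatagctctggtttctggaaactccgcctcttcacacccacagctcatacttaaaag
Ifit3: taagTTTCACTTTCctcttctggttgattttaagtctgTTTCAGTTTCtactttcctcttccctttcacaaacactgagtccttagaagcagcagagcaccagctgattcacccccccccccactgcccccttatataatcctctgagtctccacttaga
Igtp: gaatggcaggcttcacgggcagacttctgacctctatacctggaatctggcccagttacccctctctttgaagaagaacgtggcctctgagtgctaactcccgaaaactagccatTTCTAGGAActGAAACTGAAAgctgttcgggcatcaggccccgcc
Irf1: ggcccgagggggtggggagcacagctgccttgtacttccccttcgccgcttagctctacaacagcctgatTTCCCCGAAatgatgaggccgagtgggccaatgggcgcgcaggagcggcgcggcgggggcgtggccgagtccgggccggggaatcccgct

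All levels below are log2(intensity + 16) after quantile normalisation, so that a difference of 1 is a doubling. Differences of dim genes are understated on this scale. With 1 array per arm and time, neighbouring times stand in for replicates. In the courses within an arm the p-values therefore measure the spread between times. Arms were compared matched by time, so there the p-values measure how far the differences between arms vary over times. Each spread is pooled over the arms and windows fitted, and the number of arrays limits its precision. Whether neighbouring times are independent was not tested. A gene was called where limma's Benjamini-Hochberg adjusted p, taken over all 12792 genes, was under 0.05. In bulk RNA, fewer cells of a type and less RNA per cell cannot be told apart. The Ifit, Oas, Gbp and immunity-related GTPase families hold near-identical copies whose transcripts a probe may share, which was not tested.

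The arrays at 192 h touch most late results. The prieurianin array at 192 h correlated best, across genes, with the untreated array at 144 h (r = 0.971) rather than with any prieurianin array. Its mean of 8 adipocyte markers was 14.16, against 10.39 to 12.32 on the other 4 prieurianin arrays from 96 h on. The DMSO and untreated arrays at 192 h were closest to later arrays of their own arms (r = 0.986 to 288 h for DMSO and 0.985 to 240 h for untreated). Late results are therefore given with and without 192 h, and the late window was also split into 96 and 144 h, 192 h, and 240 and 288 h. That split was chosen after the data had been seen.

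In every arm the interferon genes started high, were low at 96 and 144 h and rose again by 240 h, with the lowest mean at 144 h in the controls and at 192 h in prieurianin cells. The arrays at 96 and 144 h are called the trough. The mean over the 41 genes at 0 to 3 h was 11.16 ± 0.25 in prieurianin, 11.14 ± 0.22 in DMSO and 11.19 ± 0.25 in untreated cells (SD over 6 times). At 96 and 144 h it was 9.06 in prieurianin, 9.10 in DMSO and 9.06 in untreated cells. At 240 and 288 h it was 10.64 and 10.13 in prieurianin cells, against 11.22 and 11.19 in DMSO cells and 11.05 and 11.21 in untreated cells. Both controls thus regained their first level, and both prieurianin arrays lay below all 4 control arrays.

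**Figure D1:**
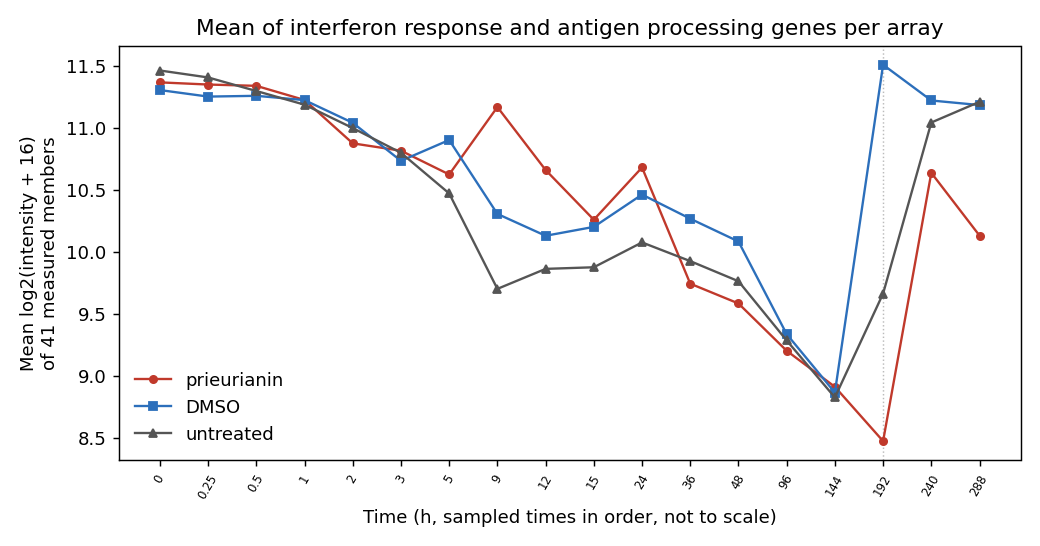
Mean log2(intensity + 16) of the 41 measured genes on each array, by time (sampled times in order, not to scale), with prieurianin in red, DMSO in blue and untreated in grey. The arms coincide at 96 and 144 h, part at 192 h (dotted line), where prieurianin stands at 8.47, DMSO at 11.51 and untreated at 9.67, and prieurianin stays below both controls at 240 and 288 h.

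The trough was broad in each arm. At 96 and 144 h against 0 to 3 h, 33 of the 41 genes were lower in each arm and none was higher, with a median difference of -2.14 in prieurianin, -1.89 in DMSO and -2.09 in untreated cells. Of all genes tested, 13% were lower in prieurianin, 15.5% in DMSO and 15.7% in untreated cells. The lowest value of a gene's course lay at 144 h for 30 of the 41 genes in DMSO and 23 in untreated cells. In prieurianin cells it lay at 192 h for 29 genes and at 144 h for 6.

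The antiviral effectors had the deepest trough of the role groups, with a median difference of -2.88 in prieurianin, -2.64 in DMSO and -2.64 in untreated cells. Of 17, 16 were lower in prieurianin cells and 15 in each control. Ifit3, a partner of the RNA-binding protein Ifit1, stood at 8.02 and 7.69 at 96 and 144 h in prieurianin cells, at 7.31 and 7.20 in DMSO cells and at 7.87 and 6.82 in untreated cells. At 0 to 3 h its lowest, median and highest values were 11.92, 13.25 and 13.80 in prieurianin, 11.71, 12.98 and 13.30 in DMSO and 11.60, 13.06 and 13.47 in untreated cells. The 2 windows did not overlap in any arm, and the fall was -5.11 in prieurianin (SE 0.76, limma adjusted p = 2.3e-06), -5.46 in DMSO (SE 0.76, adjusted p = 2.5e-07) and -5.41 in untreated cells (SE 0.76, adjusted p = 2.8e-07). Isg15, a ubiquitin-like protein that is joined to other proteins, stood at 10.05 and 9.29 in the prieurianin trough, 10.15 and 8.78 in DMSO and 9.99 and 9.22 in untreated cells, and fell by 4.19, 4.45 and 4.45 in these arms. At 0 to 3 h it had spanned 13.43 to 14.15 in prieurianin, 13.60 to 14.03 in DMSO and 13.48 to 14.50 in untreated cells. Other deep falls were those of Ifi44 (-5.00 in prieurianin, -4.50 in DMSO and -4.77 in untreated cells), the nucleotide kinase Cmpk2 (-4.54, -4.49 and -4.76) and Usp18, the protease that removes Isg15 from its targets (-3.72, -3.05 and -3.17). Bst2 (tetherin), which holds virus particles at the cell surface, was the brightest of the 41 and read at the top of the scale on the untreated array of 0 h, so that its first level there is a lower limit.

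The 5 nucleic acid sensors and the 6 interferon-inducible GTPases all fell in all arms. The sensors are the RNA helicases Ddx58 (RIG-I), Ifih1 (MDA5) and Dhx58 (LGP2), the double-stranded RNA kinase Eif2ak2 and the Z-form nucleic acid receptor Zbp1. Zbp1 reached 4.81 and 4.89 at 96 and 144 h in prieurianin cells, 4.87 and 4.35 in DMSO cells and 4.29 and 4.77 in untreated cells, below the limit of 6.07 that defined dim genes. At 0 h it had stood at 9.40, 9.02 and 9.64 in the same arms. Among the transcription factors, Irf7, Irf9 and Stat2 fell in each arm, by 1.51 (Stat2) to 2.18 (Irf9) in prieurianin, 1.61 (Irf7) to 1.87 (Stat2) in DMSO and 1.80 (Irf9) to 1.93 (Stat2) in untreated cells.

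Antigen processing genes took less part in the trough. Of 7, 2 fell in prieurianin and 3 in each control. Psmb10, a catalytic subunit of the immunoproteasome, stood at 12.18 and 11.38 in the prieurianin trough, 12.45 and 11.64 in DMSO and 12.03 and 11.49 in untreated cells. At 0 to 3 h it had spanned 13.66 to 14.01 in prieurianin, 13.74 to 14.03 in DMSO and 13.51 to 14.07 in untreated cells, above every trough array. The immunoproteasome subunit Psmb8 fell by 0.93 in prieurianin (limma adjusted p = 0.021), 1.34 in DMSO (adjusted p = 0.00076) and 1.47 in untreated cells (adjusted p = 0.00022). The peptide transporter subunit Tap1 differed by -0.42, -0.18 and -0.29 in prieurianin, DMSO and untreated cells and was not called (limma adjusted p = 0.30, 0.69 and 0.51). The genes not called in any arm were Irf1, Ccl5, Oasl1, Tap1, Tap2, Psmb9 and Erap1.

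**Figure D2:**
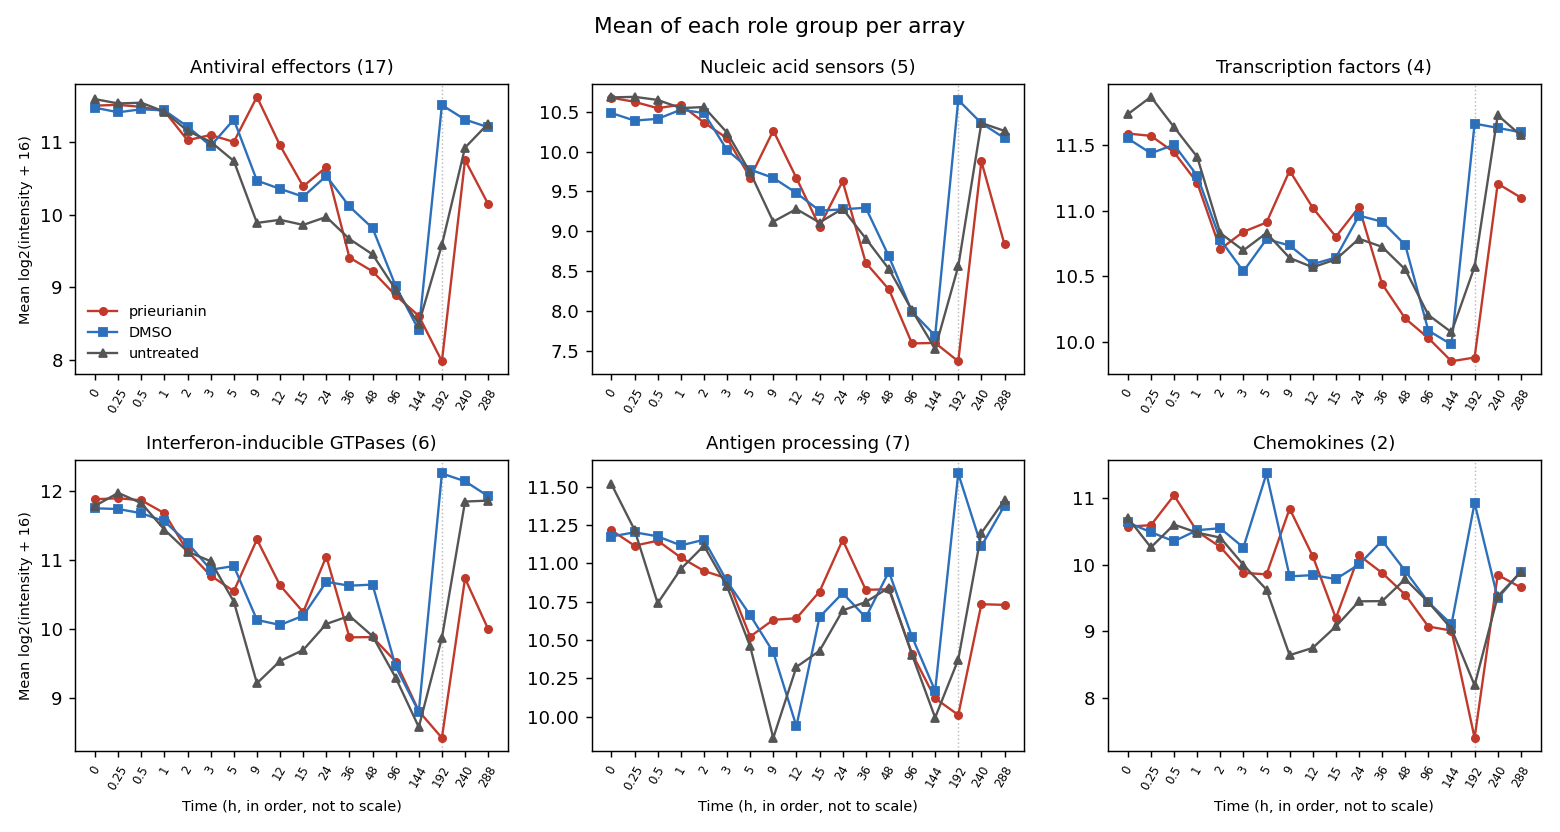
Mean log2(intensity + 16) of each role group per array by time (sampled times in order, not to scale), in 6 panels whose vertical axes differ, with the number of genes in brackets. The effectors, sensors and GTPases fall in every arm and return in the controls, the antigen processing genes span a narrower range, and the 2 chemokines stand at 11.37 on the DMSO array of 5 h.

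Irf1 and Ccl5 ran a different course. Irf1, an interferon-induced transcription factor, fell within 2 h to 10.12 in prieurianin, 9.98 in DMSO and 10.34 in untreated cells, after 12.19, 12.28 and 12.29 at 0 h. By 48 h it was back at 11.90, 12.08 and 12.35 in these arms, and at 96 and 144 h it held 11.89 and 11.71 in prieurianin, 11.91 and 11.99 in DMSO and 12.15 and 12.16 in untreated cells. It had no late trough. Ccl5, a chemokine that draws T cells and monocytes, was highest at 36 or 48 h in prieurianin and untreated cells (12.36 and 11.53) and reached 12.10 and 12.09 there in DMSO cells. At 240 and 288 h it stood at 10.20 and 10.27 in prieurianin, 9.39 and 9.54 in DMSO and 9.18 and 9.28 in untreated cells. It was lower there than in the trough in DMSO (-1.60, SE 0.41, limma adjusted p = 0.011) and untreated cells (-1.73, SE 0.41, adjusted p = 0.0053), while most other genes rose.

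**Figure D3:**
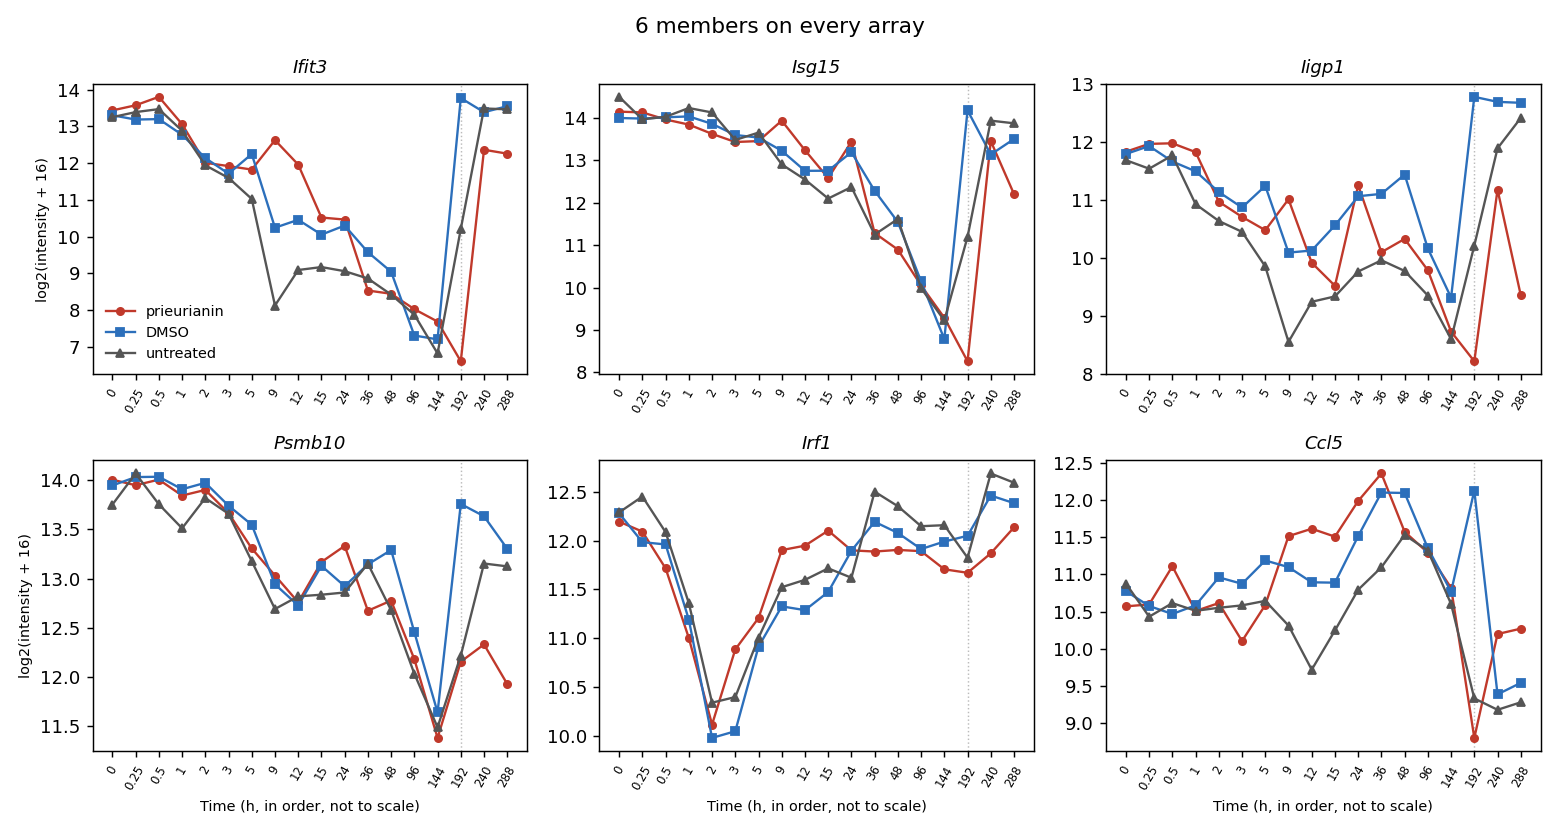
log2(intensity + 16) of Ifit3, Isg15, Iigp1, Psmb10, Irf1 and Ccl5 on every array by time (sampled times in order, not to scale), with vertical axes that differ between panels. Ifit3 regains its first level in both controls, Isg15 ends at 13.14 and 13.50 in DMSO and 13.93 and 13.87 in untreated cells, Iigp1 and Psmb10 stay lower in prieurianin cells at 240 and 288 h, Irf1 dips at 2 h and has no trough, and Ccl5 peaks at 36 to 48 h apart from 12.13 in DMSO at 192 h.

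Between 0.25 and 3 h no difference between prieurianin and DMSO cells was called. None of the 41 genes was called higher or lower, as 0% of all genes were in either direction, by limma with Benjamini-Hochberg adjustment. At an unadjusted p under 0.05 there were 300 genes and none of the 41. Against untreated cells, prieurianin cells had 1 gene higher (4.16% of all genes), the peptide-trimming aminopeptidase Erap1 (1.54, limma adjusted p = 0.040), and 1 lower (1.77% of all genes), the peptide loading chaperone Tapbp (-0.85, adjusted p = 0.0005). DMSO cells had none higher than untreated cells (3.13% of all genes) and 1 lower (0.407%), again Tapbp (-0.70, adjusted p = 0.0034). At 0.25 to 3 h Tapbp spanned 8.69 to 9.38 in prieurianin and 9.07 to 9.33 in DMSO cells, all below the untreated values of 9.62 to 10.31. Erap1 spanned 9.02 to 9.36 in prieurianin and 9.10 to 9.40 in DMSO cells, all above the untreated values of 5.91 to 8.35. At 0 h, left out of this window, it stood at 8.88 in prieurianin, 9.41 in DMSO and 9.39 in untreated cells. Its probe, 1 of 2 for the gene, was unsteady between arrays, with 5.52 in DMSO at 12 h and 5.46 in untreated cells at 9 h. With 0 h included, Tapbp spanned 8.69 to 9.38 in prieurianin, 8.19 to 9.33 in DMSO and 9.62 to 10.31 in untreated cells. Both treated arms thus already lay below untreated cells at 0 h, DMSO at 8.19.

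From 5 to 48 h genes of the set fell in all arms. Against 0 to 3 h, 8 genes were lower and 1 higher in prieurianin cells (7.24% and 7.54% of all genes). In DMSO cells 11 were lower (9.48% of all genes) and in untreated cells 23 were lower (8.01%). The largest falls called in prieurianin cells were those of Cxcl10 (-2.07), a chemokine for activated T cells, the GTPase Ifi47 (-1.74) and the sensor Dhx58 (-1.48), and the rise was that of Ccl5 (1.01). Leaving out single times moved the prieurianin count between 4 and 10 and the DMSO count between 4 and 14. The difference of this step between arms was not called for any of the 41 genes by limma with Benjamini-Hochberg adjustment (0.422% of all genes for prieurianin against DMSO, 0.367% for prieurianin against untreated and 0% for DMSO against untreated cells). At an unadjusted p under 0.05 there were 0, 1 and 0 genes of the 41.

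The untreated arm was the lowest of the 3 at 9 to 24 h. Relative to untreated cells at 5 to 48 h, 8 genes were higher in prieurianin cells (13% of all genes) and 1 was lower (15.5%), and 6 were higher in DMSO cells (9.47%) and 1 was lower (10.8%). The shares of higher genes lay not far above those of all genes and the shares of lower genes lay below them, and the comparisons share the untreated arrays. Ifit1, which binds RNA that lacks a host cap, had lowest, median and highest values of 5.68, 7.08 and 7.82 in prieurianin, 6.45, 7.26 and 8.18 in DMSO and 4.64, 5.12 and 6.14 in untreated cells. The untreated median lay below the limit of 6.07 for dim genes. All DMSO values were above the untreated range, and the difference from untreated was 1.64 for prieurianin (limma adjusted p = 0.00016) and 1.99 for DMSO (adjusted p = 2.0e-05). The GTPase Iigp1, which attacks parasite vacuoles, spanned 9.52 to 11.25 in prieurianin, 10.09 to 11.44 in DMSO and 8.55 to 9.96 in untreated cells, 0.88 and 1.31 above untreated (limma adjusted p = 0.040 and 0.0037). Also higher in prieurianin were Erap1 (1.75), Ifit3 (1.52), Gbp2 (1.40), Usp18 (1.25), Ifi44 (1.09) and Ccl5 (0.97), and in DMSO Ifi44 (1.22), Cxcl10 (1.02), Ccl5 (0.78) and Irgm1 (0.56). Tapbp was lower in both (-0.46 and -0.63), as it had been at 0 h. The count for prieurianin was 4 without 12 h, 5 without 9 h or 24 h and 13 without 192 h, and that for DMSO was 2 without 24 h or 36 h.

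Between prieurianin and DMSO cells at 5 to 48 h no gene of the 41 was called (6.62% of all genes were higher and 4.51% lower), and 2 were higher and 1 lower when 192 h was left out of the fit. The mean difference over these 7 times was 0.05, but it changed sign within the window. At 9 h the mean of the 41 genes was 11.17 in prieurianin, 10.31 in DMSO and 9.70 in untreated cells. On those single arrays 17 genes were over 2-fold higher in prieurianin than in DMSO (2.52% of all genes) and 23 than in untreated cells (4.37%). Rsad2 (viperin), an enzyme that makes a chain-ending nucleotide, stood at 11.97 in prieurianin, 9.48 in DMSO and 8.75 in untreated cells, and the GTPase Gbp2 at 12.60, 10.18 and 9.19. By 36 h the order had turned, at 9.75 in prieurianin, 10.27 in DMSO and 9.93 in untreated cells. The DMSO array at 5 h held single high values, with Cxcl10 at 9.12 in prieurianin, 11.54 in DMSO and 8.61 in untreated cells at that time. A single array carries no estimate of error.

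At 192 h the arms were far apart, with the DMSO array at the level of 240 and 288 h and the prieurianin array below its trough. Each array at 192 h was set against the mean of the same arm at 144 and 240 h, which joins a trough array with a recovered one. In the prieurianin arm none of the 41 genes was over 2-fold higher and 25 were over 2-fold lower (7.13% of all genes), with a mean step of -1.30. In the DMSO arm 32 were over 2-fold higher (2.35% of all genes) and none lower, with a mean step of 1.47. The DMSO array at 144 h had a step as large the other way against its own neighbours, with a mean of -1.56 and 30 genes over 2-fold lower. In the untreated arm, whose 192 h array lay between its neighbours, 1 was higher (0.266%) and 1 lower (0.586%), Cmpk2 and Cxcl10, with a mean step of -0.27. The untreated Cmpk2 value at 240 h was 6.49, against 11.37 at 288 h.

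Ifit3 and Isg15 made the largest steps at 192 h in both arms. Ifit3 stood at 6.61 at 192 h in prieurianin, against 7.69 at 144 h and 12.36 at 240 h, a step of -3.42. In DMSO it stood at 13.77, against 7.20 and 13.38, a step of 3.48, and in untreated cells at 10.21, against 6.82 and 13.49. Isg15 stepped by -3.11 in prieurianin (8.26 at 192 h) and 3.22 in DMSO (14.18). The next largest steps were those of Mx2 (-2.78) and Ifit2 (-2.76) in prieurianin, and those of Ifi44 (3.09), Zbp1 (2.63), Cmpk2 (2.36), Ifi47 (2.32), Dhx58 (2.19) and Gbp3 (2.07) in DMSO. Set against each other at 192 h, 37 of the 41 genes were over 2-fold lower in prieurianin than in DMSO (5.91% of all genes) and 22 than in untreated cells (5.02%), and 33 were over 2-fold higher in DMSO than in untreated cells (2.33%). The mean of the 41 genes at 192 h was 8.47 in prieurianin, below its 144 h value of 8.91, 11.51 in DMSO, above its 240 h value of 11.22, and 9.67 in untreated cells, between 8.83 and 11.05. With 1 array per arm the steps have no replicate check, and the part that the handling or labelling of these arrays plays in them was not tested.

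**Figure D4:**
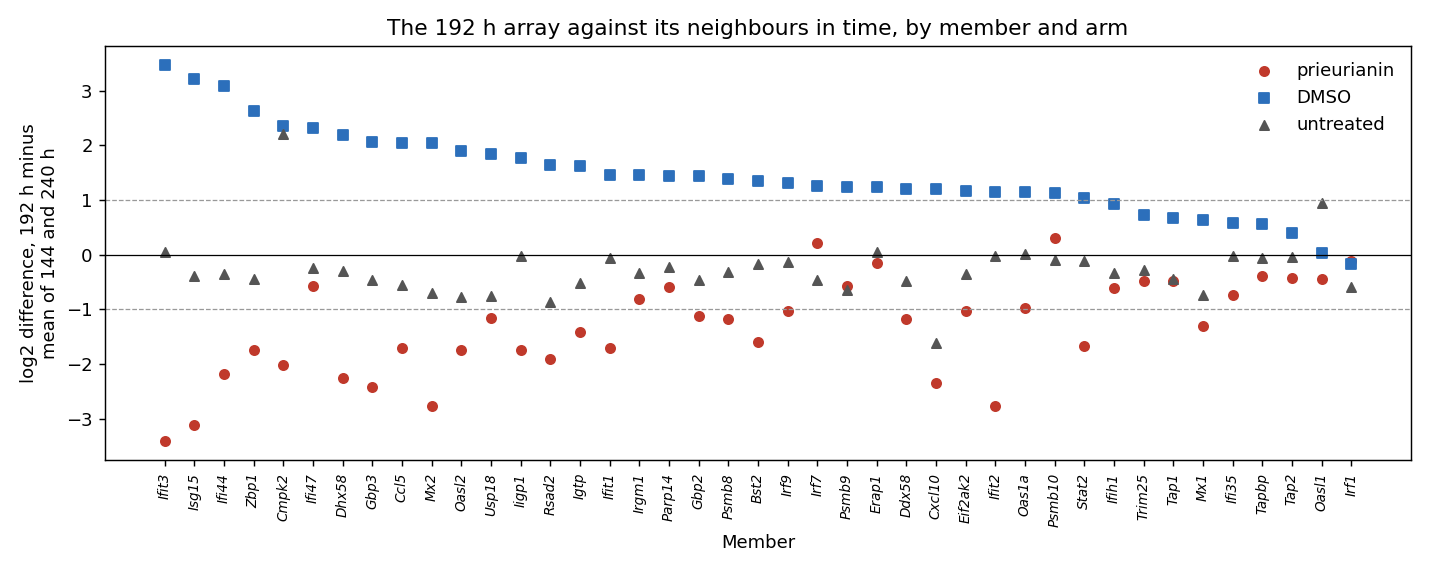
Level at 192 h minus the mean of 144 and 240 h in the same arm (log2), for each of the 41 genes, ordered by the DMSO value, with dashed lines at 2-fold. Prieurianin points lie below 0 for all but Psmb10 and Irf7, DMSO points lie above 0 for all but Irf1, and 39 of 41 untreated points lie within 2-fold.

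Genes of the set rose from the trough in all arms. From 96 and 144 h to 240 and 288 h, 16 of the 41 genes rose in prieurianin (2.88% of all genes), 31 in DMSO (4.07%) and 30 in untreated cells (4.11%), with median differences of 1.25, 1.98 and 1.83. None fell in prieurianin, 1 fell in DMSO (2.53% of all genes), Ccl5, and 2 fell in untreated cells (2.5%), Ccl5 and Oasl1. The prieurianin count was 8 without 240 h, 9 without 144 h and 10 without 96 h, and the DMSO count was 19 without 144 h. Both late values reached the arm's own lowest value of 0 to 3 h for 12 of the 41 genes in prieurianin (64.5% of all genes), 30 in DMSO (64.4%) and 31 in untreated cells (69.9%). Among the 33 genes called lower in an arm's trough, these were 5 in prieurianin, 25 in DMSO and 25 in untreated cells, or 15.2%, 75.8% and 75.8%. Of all genes called lower in the trough, 18.3% did so in prieurianin, 26.5% in DMSO and 24.9% in untreated cells. The difference between arms in the size of the recovery was itself not called for any of the 41 genes. The smallest limma adjusted p was 0.077 against DMSO and 0.079 against untreated cells, with 9 and 11 genes at an unadjusted p under 0.05, where 0.469% and 0.641% of all genes were called.

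Ifit3 recovered most. It stood at 12.36 and 12.26 at 240 and 288 h in prieurianin, 13.38 and 13.55 in DMSO and 13.49 and 13.46 in untreated cells, a rise of 4.45 in prieurianin (SE 0.93, limma adjusted p = 0.0022), 6.21 in DMSO (SE 0.93, adjusted p = 1.4e-05) and 6.13 in untreated cells (SE 0.93, adjusted p = 1.7e-05). Other genes that rose in prieurianin were Ifi44 (3.38), Zbp1 (3.37), Isg15 (3.16), the GTPase Mx2 (3.05), Usp18 (2.58) and the factors Irf9 (1.79), Stat2 (1.43) and Irf7 (1.43). Iigp1 stood at 11.18 and 9.35 in prieurianin, 12.69 and 12.68 in DMSO and 11.89 and 12.41 in untreated cells. Its rise of 1.01 in prieurianin was not called (limma adjusted p = 0.32), against called rises of 2.95 in DMSO and 3.18 in untreated cells. All 6 GTPases rose in each control and 1 of 6 in prieurianin. Of the antigen processing genes none of 7 rose in prieurianin and 3 rose in each control.

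Relative to 0 to 3 h, the 240 and 288 h arrays were lower for 13 genes in prieurianin (10.2% of all genes), 1 in DMSO (11.5%), Ccl5, and 4 in untreated cells (9.58%), Cmpk2, Oasl1, Ccl5 and Psmb10. In DMSO 2 genes ended above their start (12.2% of all genes), Iigp1 by 1.20 and the peptide transporter subunit Tap2 by 0.95.

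In the trough few differences between arms were called. At 96 and 144 h none of the 41 was called between prieurianin and DMSO (5.44% of all genes higher, 5.3% lower) or between DMSO and untreated cells (0.657% and 0.0782%). Between prieurianin and untreated cells 1 was lower (8.22% of all genes), the immunoproteasome subunit Psmb9 (-0.78, limma adjusted p = 0.0085).

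At 240 and 288 h, 19 of the 41 genes were lower in prieurianin than in DMSO cells (15.3% of all genes) and none was higher, with a median difference of -0.67. Against untreated cells 22 were lower (13.9% of all genes) and 2 were higher (12.6%), Oasl1, which in mice restrains Irf7 translation, and Ccl5. No gene of the 41 was called between DMSO and untreated cells, where 0% of all genes were higher and 0.0156% lower. Both prieurianin counts rest on the 288 h arrays. Without 288 h they were 7 against DMSO and 4 against untreated cells, with the remaining array at 240 h assumed to vary as the others did.

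The GTPases were the group most set apart. All 6 were lower in prieurianin than in DMSO, and their mean at 240 and 288 h was 10.37 in prieurianin, 12.03 in DMSO and 11.85 in untreated cells, after 9.17, 9.13 and 8.94 in the trough. Iigp1 differed from DMSO by -2.42 (SE 0.41, limma adjusted p = 4.6e-05). Ifi47, another GTPase of the family, stood at 10.84 and 9.67 in prieurianin, 12.36 and 12.21 in DMSO and 12.32 and 12.30 in untreated cells, a difference of -2.03 from DMSO and -2.06 from untreated. Psmb10 stood at 12.33 and 11.93 in prieurianin, 13.63 and 13.30 in DMSO and 13.15 and 13.12 in untreated cells, and was -1.34 from DMSO (SE 0.17, limma adjusted p = 1.0e-06). For each of these 3 genes both prieurianin arrays lay below all 4 control arrays. Psmb8 stood at 11.87 and 11.65 in prieurianin, 12.29 and 12.60 in DMSO and 12.32 and 12.64 in untreated cells and was -0.69 from DMSO, and Tap2 (-0.95), Irgm1 (-0.75) and Psmb9 (-0.58) were also lower. Tap1 stood at 10.08 and 10.42 in prieurianin, 10.53 and 10.56 in DMSO and 10.69 and 10.67 in untreated cells and was not called.

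Of the 5 sensors 3 were lower than in DMSO, Ifih1 (-1.68), Eif2ak2 (-1.12) and Dhx58 (-0.86). Of the 17 effectors 5 were lower, Cmpk2 (-2.78), encoded beside Rsad2, the ADP-ribosyltransferase Parp14 (-1.84), Rsad2 (-1.80), Oasl2 (-1.10) and Ifi35 (-0.65). Cmpk2 differed by 0.00 from untreated cells, whose 240 h array held the single low value named above. Of 4 transcription factors 1 was lower, Irf7, the factor that amplifies type I interferon transcription. It stood at 10.74 and 10.50 in prieurianin, 11.54 and 11.38 in DMSO and 11.70 and 11.40 in untreated cells, a difference of -0.84 from DMSO and -0.93 from untreated. Several effectors that had the deepest trough did not pass the test. Ifit3 differed from DMSO by -1.16 (limma adjusted p = 0.16) and Isg15 by -0.49 (adjusted p = 0.32), while its difference from untreated cells was -1.07 (adjusted p = 0.018). Cxcl10 stood at 9.50 and 9.05 in prieurianin, 9.61 and 10.25 in DMSO and 9.87 and 10.50 in untreated cells and was not called. Stat2 stood at 11.98 and 11.22 in prieurianin, 11.98 and 12.16 in DMSO and 11.89 and 11.80 in untreated cells, and Irf9 at 10.24 and 10.55, 10.55 and 10.48, and 10.64 and 10.51 in these arms, and neither was called.

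**Figure D5:**
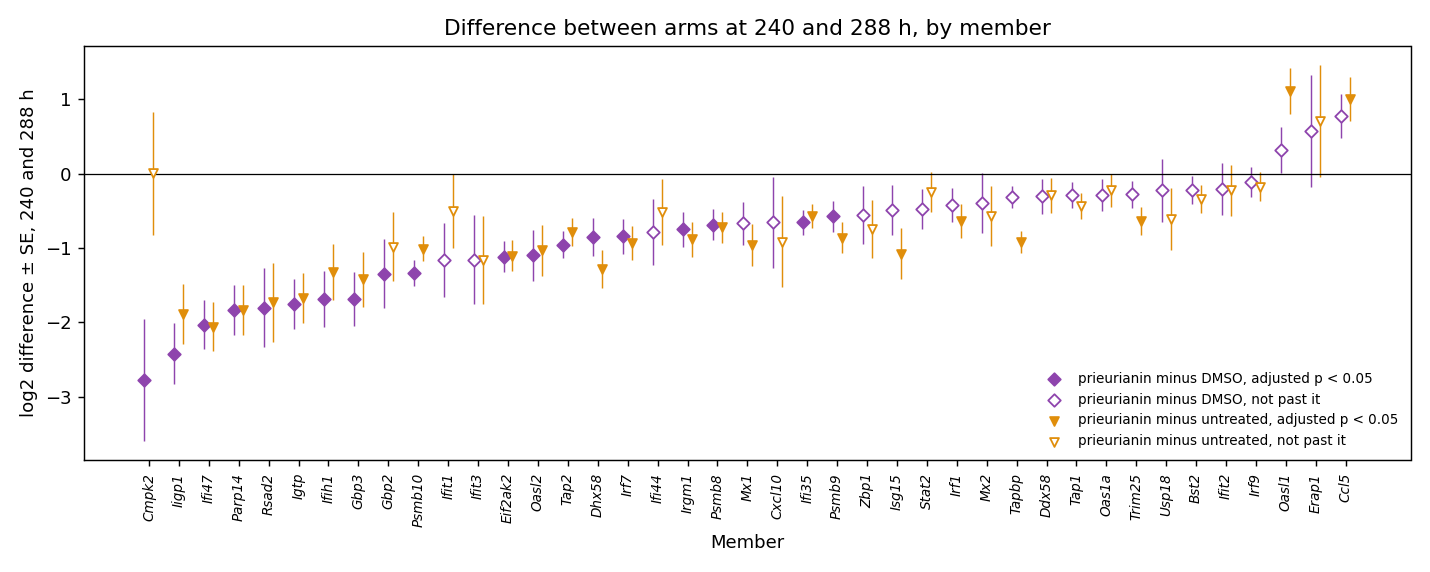
Difference between arms at 240 and 288 h (log2 ± SE) for each of the 41 genes, prieurianin minus DMSO in purple diamonds and prieurianin minus untreated in orange triangles, filled where the adjusted p was under 0.05. Iigp1, Ifi47, Igtp, Parp14 and Psmb10 are among the genes that lie below -1 against both controls, Cmpk2 differs from DMSO alone, and Irf9 lies at -0.12 and -0.18.

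Over the whole window of 96 to 288 h, 25 genes were lower in prieurianin than in DMSO (9.36% of all genes) and none was higher (7.32%). They were 9 of 17 effectors, 4 of 5 sensors, 2 of 4 transcription factors, 5 of 6 GTPases and 5 of 7 antigen processing genes. The largest differences were those of Cmpk2 (-2.19), Iigp1 (-2.07), Ifi47 (-1.62), Ifi44 (-1.58), Rsad2 (-1.56), Igtp (-1.56), Parp14 (-1.53) and Ifit1 (-1.42), and the smallest of the 25 was that of Ifi35 (-0.46). Ifit1 stood at 4, the floor of the scale, on the prieurianin array at 192 h. The mean difference of the 41 genes was -0.95 ± 1.24 (SD over 5 times), and -0.43 without 192 h. Without 192 h the count was 12 (13.9% of all genes), and all 12 were among the 25. These 12 were Iigp1, Igtp, Ifi47, Tap1, Tap2, Psmb9, Psmb10, Parp14, Irf7, Eif2ak2, Dhx58 and Ifih1. Parp14 was -1.53 with all 5 times (SE 0.28, limma adjusted p = 0.00024), and Iigp1 was -2.07 with all 5 times (SE 0.38, adjusted p = 0.0003) and -1.45 without 192 h (SE 0.36, adjusted p = 0.0026). Isg15 and Ifit3 were not called with or without 192 h.

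Against untreated cells 15 genes were lower at 96 to 288 h (10.5% of all genes) and none was higher (11.4%). The largest were Ifi47 (-1.26), Parp14 (-1.14), Dhx58 (-1.13) and Iigp1 (-1.04). The count was again 15 without 192 h (14.2% of all genes), 7 without 240 h and 6 without 288 h. Between DMSO and untreated cells no gene was called (3.14% of all genes higher, 0.508% lower), and the mean difference was 0.42 ± 0.80 (SD over 5 times) with 192 h and 0.06 without.

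Within arms, the step to 96 to 288 h averages the trough with the recovery. Against 5 to 48 h, 15 genes were lower in prieurianin (11.2% of all genes), and 7 without 192 h (10.4%). In DMSO 1 gene was higher (17.8% of all genes), and in untreated cells 1 was higher (15.3%). Oasl1 was lower in DMSO cells (-0.84, where 18.3% of all genes were lower). In untreated cells Cmpk2 (-2.22) and Oasl1 (-0.75) were lower (17.5% of all genes). The difference of this step between arms was not called for any of the 41 genes, against DMSO (smallest limma adjusted p = 0.20, 0.219% of all genes called) or untreated cells (0.18, 0.0782%), while 11 genes in each had an unadjusted p under 0.05.

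Other genes of the pathway were read from lists of known interferon-induced, signalling and class I genes. Of 22 other interferon-induced genes, 14 were lower at the trough in prieurianin, 16 in DMSO and 14 in untreated cells, and 5, 14 and 15 rose by 240 and 288 h. At 96 to 288 h 10 of the 22 were lower in prieurianin than in DMSO and none was higher, led by Rtp4 (-1.56), Irgm2 (-1.53), Rnf213 (-1.23) and Parp9 (-1.05). In the same comparison the remaining lists had few genes called, where 7.32% of all genes were higher and 9.36% lower. Of 12 receptors and signalling genes 1 was higher, the kinase Jak2 (0.50), and 2 lower, the receptor chains Ifngr1 (-0.52) and Ifnar2 (-0.45). Of 8 class I genes 2 were lower, H2-T23 (-1.01) and the tapasin relative Tapbpl (-0.77), of 8 sensor adaptors 2, Ikbke (-0.59) and Tbk1 (-0.38), and of 6 proteasome genes 1, the activator subunit Psme1 (-0.61). The class I heavy chain H2-D1, near the top of the scale, differed by -0.28 (limma adjusted p = 0.088). The class I light chain B2m differed by -0.42 (limma adjusted p = 0.36) between prieurianin and DMSO, and at 5 to 48 h it was 1.37 higher in prieurianin and 1.64 higher in DMSO than in untreated cells (adjusted p = 8.4e-05 and 1.1e-05). Transcripts of interferon itself were dim. Ifnb1 stayed between 4.80 and 6.86 over the 54 arrays and was too dim to be tested, and neither of the 2 interferon genes tested, Ifng and Ifnk, was called between prieurianin and DMSO at 96 to 288 h. Within the DMSO arm Ifnk was 0.84 higher at 96 to 288 h than at 5 to 48 h (limma adjusted p = 5.3e-06), within the untreated arm 0.42 higher (adjusted p = 0.017), and within the prieurianin arm it differed by 0.32 (adjusted p = 0.089). H2-K1 was not analysed here.

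Markers of other cell types were read beside these courses. The mean of 10 macrophage markers had a median over 0 to 3 h of 8.01 in prieurianin, 8.16 in DMSO and 8.11 in untreated cells. At 96 and 144 h it averaged 7.26, 6.97 and 6.99 in these arms, and at 240 and 288 h 7.89, 7.91 and 7.85. Of 7 bright enough to test, 5 were lower in the trough in each arm, 1 was higher in prieurianin and in untreated cells, and 2 rose afterwards in each arm. Mpeg1, a macrophage marker that interferon also induces, was 1.34 lower in prieurianin than in DMSO at 96 to 288 h. Among the macrophage markers, Ptprc (4.30 to 5.67) and Fcgr1 (4.88 to 5.86) stayed below the limit for dim genes on all 54 arrays. Adgre1 ran from 4.45 to 6.73, so its highest value lay above that limit. The mean of 6 T and NK cell markers by window ran from 5.93 to 6.18. Of 4 dendritic and B cell markers bright enough to test, 2 were lower in the trough in prieurianin and 1 in each control. Cd74, an MHC class II chaperone that interferon gamma induces, fell by 1.85 in prieurianin, 2.04 in DMSO and 1.98 in untreated cells, and by 240 and 288 h it differed from the trough by 0.90 in prieurianin (not called, limma adjusted p = 0.26), 1.45 in DMSO and 1.47 in untreated cells (adjusted p = 0.037 and 0.035). Their part in the results was not tested. The adipocyte markers, by contrast, separated the arms at 240 and 288 h, when all 8 were lower in prieurianin than in DMSO, among them Cfd (-6.63) and Adipoq (-5.21).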

How the data were processed

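Total RNA was amplified, labelled with Cy5 and hybridised to single-colour Mouse OneArray arrays, per the labels' protocols. The values used are the deposited intensities of 29922 probes on 54 arrays, whose scaling by the authors no label or header states. They ran from -83 to 65497, 0.466% lay below 0, and array medians ran from 88 to 313. Of the probes, 21020 had 1 gene symbol and 8902 none. Values were quantile normalised, floored at 0 and taken as log2(value + 16). The probe with the highest mean stood for its gene, and genes whose mean was above the lower quartile (6.07) were tested.

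limma 3.58.1 in R 4.3.3 compared arms with time as a factor (28 residual degrees of freedom, 0 h left out) and windows within an arm (45). The windows were 0.25 to 3, 5 to 48 and 96 to 288 h, with 0 h joining the first in the courses within an arm. The split of the late window, added after the data had been seen, left 24 and 39 degrees of freedom. Time is the pairing of the arms, as the labels give it. The fits were run on simulated data with independent noise on each array, which cannot show how dependence between neighbouring times would affect the p-values. The members and all lists were chosen with earlier results of these data known. Named were up to 8 called members per comparison and direction by size, the 8 and 4 largest at 192 h in DMSO and prieurianin, Irf1, Irf7, Irf9, Stat2, Psmb8, Tap1, Cxcl10 and Isg15, and up to 4 genes of each other list. Mpeg1, Cd74, Zbp1 and the adipocyte markers named were chosen after their values were seen. Alternatives were median centring, the values as deposited, other filters and blocks, and leaving out each time.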

Additional observations from a re-analysis of the deposited data

Results flagged for a closer look

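At 192 h the steps of the 2 treated arms had opposite signs. The mean of the 41 genes at 192 h against the mean of 144 and 240 h was -1.30 in prieurianin and 1.47 in DMSO cells. With 1 array per arm this difference was not tested. The untreated step was -0.27.

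In groups of 4 to 10 times, 33 single arrays of 387 groups tested lay far from the others by Dixon's criterion, where chance gives about 1 in 20, or 19.4. None was at 192 h. Each late group joined trough and recovered arrays, so a 192 h array near either could hardly be marked. This absence therefore says little about 192 h. Many of the 33 lay at the edge of a window in which levels were falling. At 3 h in DMSO these were the means of the sensors (10.02) and of the antigen processing genes (10.88), and Dhx58 (9.66), Gbp2 (11.74), Psmb8 (12.33), Stat2 (11.18), Tap2 (11.31) and Usp18 (12.49). At 3 h in untreated cells they were the mean of the sensors (10.24) and Dhx58 (9.68), and at 2 h Rsad2 was low in prieurianin (10.46) and untreated cells (10.64). At 5 h in untreated cells the mean of the antiviral effectors (10.74), Ifit3 (11.02), Irgm1 (10.05) and Mx2 (10.03) were high, and in prieurianin Irf1 was low (11.21).

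At 5 h in DMSO the mean of the chemokines (11.37), Cmpk2 (12.73), Cxcl10 (11.54), Gbp3 (11.39), Ifih1 (9.73), Mx1 (8.82), Mx2 (10.25) and Rsad2 (11.95) were high. At 48 h in DMSO Ddx58 (8.92) and Dhx58 (8.73) were marked. At 240 h in prieurianin Eif2ak2 (11.54) and Ifih1 (8.99) were high. The others were Eif2ak2 at 0 h (12.56) and Erap1 at 9 h (5.46) in untreated cells, Oasl1 at 0.5 h in prieurianin (5.56), and Tapbp at 0 h in DMSO (8.19).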

How the results depend on the processing

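Single genes were followed only for prieurianin against DMSO at 96 to 288 h, for 14 genes under 28 alternatives. Of these values 348 kept their direction and their side of the threshold, 37 were no longer past it, 7 passed it newly and none changed sign. Psmb8 was lost in 20 of the 28, Irf9 in 8 and Cmpk2 in 5. Matching arms by time is the replicate block here. With no replicate block, 4 genes were lower at 96 to 288 h in prieurianin than in DMSO and 0 than in untreated cells, and 4 and 1 were higher at 5 to 48 h in prieurianin and DMSO than in untreated cells. Time as a random block gave 5 and 3 higher at 5 to 48 h and 7 lower in prieurianin than in untreated cells at 96 to 288 h. Median centring gave 5, 3 and 8 for these. The values as deposited gave 5 higher in prieurianin than in untreated cells at 5 to 48 h, 4 and 3 lower than at 0 to 3 h in prieurianin and DMSO, and 9 rising in prieurianin by 240 and 288 h. With no filter 3 were higher in DMSO than in untreated cells at 5 to 48 h. With only those 2 arms fitted, 4 were higher at 96 to 288 h. Without 0 h, 5 and 4 were lower at 5 to 48 h in prieurianin and DMSO. Without the DMSO array at 192 h, 13 were lower in prieurianin than in DMSO at 96 to 288 h, and 1 was higher and 1 lower at 5 to 48 h. Without the prieurianin array at 192 h, 14 were lower than in DMSO and 7 than in untreated cells, and 6 fell in prieurianin after 48 h. Each fit estimates 1 spread per gene over all its windows and arms. Leaving out an array at 192 h thus also changes the spread used at 5 to 48 h. Beyond this, the cause of these shifts was not tested.

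Leaving out each time gave these ranges. For prieurianin against DMSO, 0 to 2 were higher and 0 to 1 lower at 5 to 48 h, 12 to 32 lower at 96 to 288 h and 7 to 21 lower at 240 and 288 h. For prieurianin against untreated, 4 to 13 were higher at 5 to 48 h, 6 to 17 lower at 96 to 288 h and 4 to 24 lower at 240 and 288 h. For DMSO against untreated, 2 to 8 and 0 to 3 were higher at 5 to 48 h and 96 to 288 h. From 0 to 3 h to 5 to 48 h, 4 to 10 fell in prieurianin, 4 to 14 in DMSO and 21 to 28 in untreated cells. After 48 h, 7 to 21 fell in prieurianin, and 1 to 5 and 1 to 3 rose in DMSO and untreated cells. Into the trough 29 to 33, 28 to 34 and 31 to 33 fell, and out of it 8 to 18, 19 to 33 and 22 to 32 rose, in prieurianin, DMSO and untreated cells. At 192 h, 27 to 32 genes were over 2-fold higher in DMSO and 21 to 26 lower in prieurianin under 7 alternatives.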
